A study of Mus musculus with 3 samples.

Results

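The 86 cytosolic ribosomal protein genes were followed across kidney cell types in lean and diabetic mice. The genes were taken by symbol from the 32285 genes of the deposited tables: symbols that start with Rpl or Rps followed by a digit, together with Rplp0, Rplp1, Rplp2 and Rpsa. The 5 symbols with the ending -ps and the 10 Rps6k kinases were left out. Of the 86, 46 encode proteins of the large subunit and 31 proteins of the small subunit. Another 8 encode paralogs of subunit proteins (Rpl3l, Rpl7l1, Rpl10l, Rpl22l1, Rpl36al, Rpl39l, Rps27l and Rps27rt). The last, Rps19bp1, encodes a nucleolar protein that binds Rps19 and is in the set by its name only.

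Whole kidneys of 28-week-old male mice were dissociated and profiled by droplet single-cell RNA sequencing. The groups were lean db/m animals on a control diet free of fructose, db/db animals kept on that same diet, and db/db animals fed 60% fructose, each diet given from 8 weeks of age for 20 weeks. In db/db animals the long form of the leptin receptor is not functional in any tissue, and they become obese and diabetic, and the db/m mouse carries a single mutant copy and stays lean. Fructose-fed db/m mice were not analysed here, so the diet is compared within db/db mice only. Each group gave 1 library, so no difference below has a replicate check, no test was run, and genotype, diet and library cannot be told apart within a comparison. All intervals are exact 95% intervals that cover counting error only.

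The cytosolic ribosome joins a small subunit, which reads the mRNA, to a large subunit, which forms the peptide bond, and each ribosome carries a single copy of nearly every subunit protein. Their mRNAs are among the most abundant in most cells, and many begin with a terminal oligopyrimidine tract, a run of C and T at the start that lets mTORC1 signalling control their translation. In the kidney, most cells are tubule cells, whose RNA is rich in mitochondrial transcripts.

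The 3 libraries held 13524 barcodes for db/m, 26513 for db/db control and 20383 for db/db fructose, of which 9940, 16227 and 16049 were kept, with median depths of 1531 to 1679 unique molecular identifiers (UMIs, each a counted molecule) per cell. Between 379 and 780 barcodes were shared by a pair of libraries. The libraries differed in the median mitochondrial share of UMIs per kept cell, 15.1% in db/m, 24.6% in db/db control and 10.6% in db/db fructose. Cells fell into 28 clusters, formed without using the ribosomal protein genes, and 24 were named from fixed markers as, for example, "proximal tubule-like". Of the classes, 6 had at least 100 cells in every library and were compared, with erythroid-like cells left out. Levels are counts per 1000000 UMIs of a class and library (CPM). A UMI counts a molecule whatever its length, so values were not divided by gene length.

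Start sites were examined first, since the oligopyrimidine tract is the best known sequence feature that these genes share. RefSeq promoter windows (build GRCm38.p6, 250 bases before to 50 bases after the annotated start) matched 66 of the 86 genes. Between 30 bases before and 50 bases after the start, the letters CTCTTT lay on the gene's own strand in 19 of the 66 genes, the letters CTTTTC in 9 and the letters CTTTCC in 20. At least 1 of these was found in 36 of the 66 (54.5%), against 9.94% of the 27025 genes in the table. On the opposite strand the same letters were found in 1, 2 and 2 of the 66 members. The letters CCGGAAG, the core bound by ETS factors, lay on either strand of the 300-base window in 26 of the 66 (39.4%), against 9.93% of all genes. AAGATGGC, a core of the YY1 site, was found in 6 of 66 (9.09%), against 3.19%. A TATAAA between 50 bases before and 10 bases after the start was found in 2 of 66 (3.03%), against 4.56%. The 5 windows below, 30 bases each, belong to members named in the results whose match begins 0 to 4 bases from the annotated start, and the capitals mark the match.
Rpl28 (chr7:4792953-4792982, plus strand): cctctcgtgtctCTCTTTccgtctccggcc
Rpl38 (chr11:114668568-114668597, plus strand): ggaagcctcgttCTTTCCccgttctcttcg
Rps27 (chr3:90213630-90213659, minus strand): ccgctttcgctcCTTTCCggcggtgacgac
Rpl12 (chr2:32961702-32961731, plus strand): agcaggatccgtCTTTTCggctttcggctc
Rpl15 (chr14:18270965-18270994, minus strand): aaagccttcttcCTTTCCtctggcggcagc
The match begins at the annotated start itself in Rpl28 and Rpl38, and 1, 2 and 4 bases after it in Rps27, Rpl12 and Rpl15. A match is a description of the letters and not a measured site.

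The share of UMIs that came from the 86 genes differed widely between cell classes and kept nearly the same order in the 3 libraries. Among the 9 classes plotted it was lowest in proximal tubule-like cells, the cells that reabsorb most of the filtrate, at 1.68% in db/m, 1.09% in db/db control and 1.04% in db/db fructose. Distal convoluted tubule-like cells followed with 2.07%, 1.62% and 1.61%, and thick ascending limb-like cells with 2.75%, 2.73% and 2.89%. Intercalated-like cells, which secrete acid or base, had 4.16%, 3.25% and 2.45%. Cells named connecting tubule and principal-like stood at 4.59%, 3.20% and 3.86%. Thus intercalated-like cells lay above thick ascending limb-like cells in both libraries on the control diet and below them in db/db fructose. Endothelium-like cells had 6.84%, 4.94% and 5.80%. The highest shares of the 9 were those of mononuclear phagocyte-like cells, at 12.01%, 8.75% and 10.6%, and of lymphocyte-like cells, at 11.5%, 8.00% and 9.15%, classes with fewer than 100 cells in at least 1 library. In all 9 classes plotted the share was higher in db/m than in db/db control, by the least in thick ascending limb-like cells.

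**Figure D1:**
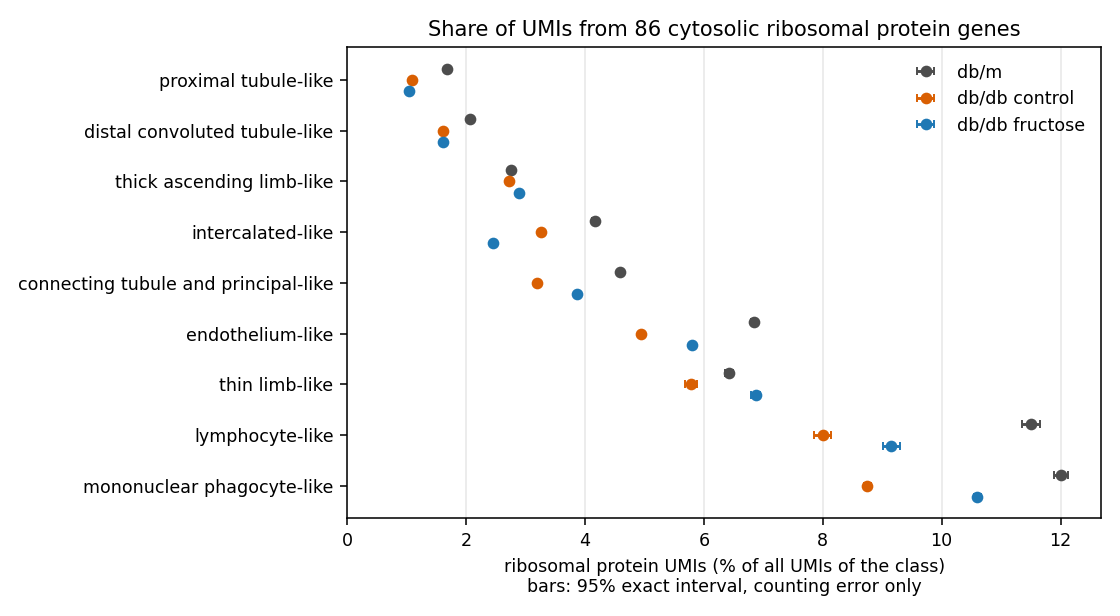
Share of UMIs from the 86 ribosomal protein genes (x axis, % of all UMIs of a class and library) in 9 cell classes (y axis); points are the 3 libraries and bars are exact 95% intervals for counting error. Proximal tubule-like cells lie lowest, at 1.04% to 1.68%, and mononuclear phagocyte-like cells highest, at 8.75% to 12.01%.

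The same members led in nearly every class. Rpl13, a large subunit protein, had the highest level of the 77 subunit genes in all 3 libraries in each of the 6 classes compared, from 342 CPM in db/db fructose proximal tubule-like cells to 2223 CPM in db/m endothelium-like cells. In db/m proximal tubule-like cells it stood at 542 CPM, and other high levels were those of Rpl28 at 497 CPM, Rpl41, the smallest ribosomal protein, at 395 CPM, and Rpl10a at 369 CPM. The median over the 77 subunit genes there was 200 CPM, and the lowest was Rps18 at 55.1 CPM. The order of 80 members by level in these cells was alike between libraries, with Spearman's rho across genes of 0.979 between db/m and db/db control and 0.972 between db/db control and db/db fructose, a description over genes whose points share libraries and depth.

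In proximal tubule-like cells the ribosomal protein genes were lower in db/db control than in db/m, with member log2 ratios from −1.12 to −0.20. The summed log2 ratio of db/db control over db/m was −0.63 (interval −0.64 to −0.61), a fold of 0.648, from 182513 UMIs in 5934 db/m cells and 120301 UMIs in 6491 db/db control cells. All 82 measured members, those that reached 10 CPM in at least 1 of the libraries compared, had ratios below 0, with intervals below 0, and 50 of the 82 were lower by 1.5-fold or more, against 12.1% of all 8631 genes measured in the comparison. None was higher by that fold, against 7.08% of all genes. The members' median log2 ratio was −0.63, and the median of all measured genes was −0.0027. The share of all genes with intervals below 0 is not given here. The 4 members not measured in these cells were Rps27rt, Rpl3l, Rpl39l and Rpl10l, all paralogs, at no more than 1.75 CPM there in any library.

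The size of this difference depended on a single cluster of db/m cells. Cluster 10 held 1548 cells of db/m, 23 of db/db control and 60 of db/db fructose and was led by Kap and Acy3. Its db/m cells had a ribosomal protein share of 2.86%, a mitochondrial share of 26.7% and 27980 CPM of Malat1, a nuclear RNA. The 60 db/db fructose cells of the cluster had a higher share still, 5.34%. The db/m cells made up 26.1% of the db/m proximal tubule-like cells and 49.1% of their ribosomal protein UMIs. In the proximal tubule-like clusters 0, 1, 2, 6 and 9 the share ran from 0.930% to 1.30% where a library had 100 or more cells. Without cluster 10 the summed log2 ratio was −0.15 (interval −0.16 to −0.14) and 1 of 82 members was lower by 1.5-fold or more, against 8.81% of all genes. With nuclear-encoded UMIs as the denominator as well, that ratio was −0.02. The main db/m clusters were 6, 9 and 10 and the main db/db control clusters 0, 1 and 2. So the libraries met in number only in cluster 2, where 137 db/m and 937 db/db control cells gave −0.21 (interval −0.26 to −0.15). The all-gene median there was −0.19, and with nuclear-encoded UMIs as the denominator the ratio was −0.08. In that cluster 8 of 82 members were lower by 1.5-fold or more, against 26.9% of all genes, and 1 was higher, against 13.5%.

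A cluster made up mostly of db/db control cells could not be named. Cluster 3 held 2777 db/db control, 465 db/db fructose and 35 db/m cells. Its highest marker scores were those of distal convoluted tubule (mean log2 fold 0.88) and proximal tubule (0.70). Its top genes, led by Calb1, Pvalb and S100g, included distal convoluted tubule markers and no proximal tubule marker. Its db/db control cells had a ribosomal protein share of 1.69% with a mitochondrial share of 39.0%, or 2.77% of nuclear-encoded UMIs, and 25303 CPM of Malat1. With cluster 3 added to the proximal tubule-like cells, the summed log2 ratio was −0.43 (interval −0.44 to −0.42) and 9 of 82 members were lower by 1.5-fold or more, against 12.5% of all genes. That value is not one of proximal tubule-like cells alone, since the type of cluster 3 is not settled. Values with cluster 3 added to distal convoluted tubule-like cells are not given here.

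**Figure D2:**
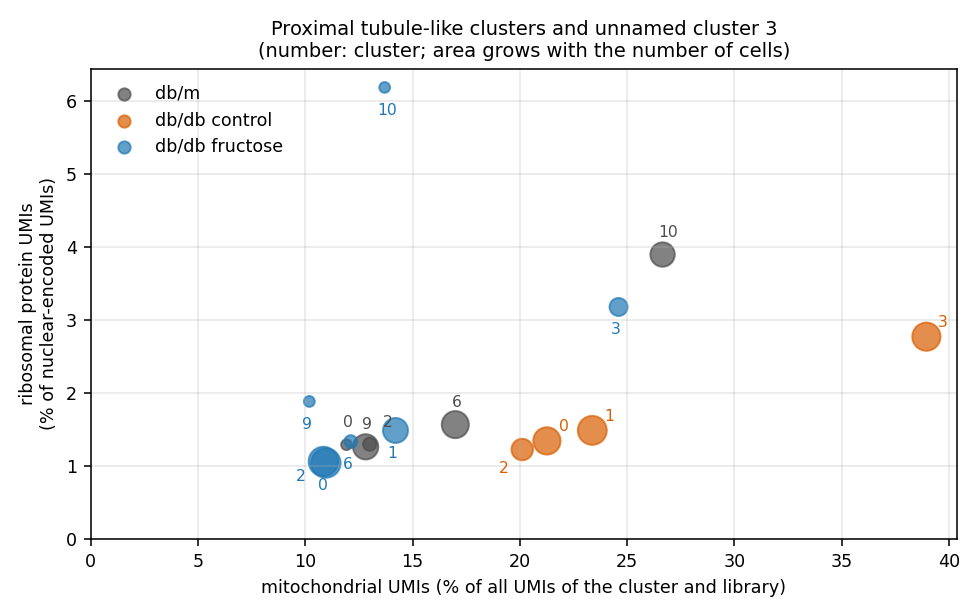
Ribosomal protein UMIs as % of nuclear-encoded UMIs (y axis) against mitochondrial UMIs as % of all UMIs (x axis) for proximal tubule-like clusters and unnamed cluster 3; each point is a cluster in 1 library with 50 or more cells, and its area grows with the number of cells. Cluster 10 of db/m lies at 3.898%, apart from db/m clusters 6 and 9 at 1.57% and 1.27%, the 60 db/db fructose cells of cluster 10 lie highest, at 6.19%, and cluster 3 of db/db control lies at 2.77%.

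Mitochondrial content moved with the comparison, so the share among nuclear-encoded UMIs was also read within bands of mitochondrial content. Over all proximal tubule-like cells it was 2.05% in db/m, 1.40% in db/db control and 1.18% in db/db fructose, a log2 ratio of −0.56 for db/db control over db/m. In cells with 5% to 10% mitochondrial UMIs it was 1.51% for db/m, beside 1.15% for db/db control. In the 10% to 20% band it was 2.05% and 1.29%, and in the 20% to 30% band 2.74% and 1.46%. The db/m value was the higher in every band. These bands include cluster 10, whose db/m cells had a mitochondrial share of 26.7%, and they were not read without it. Over all bands, the log2 ratio with nuclear-encoded UMIs was −0.02 once cluster 10 was left out. Per cell, the median share of all UMIs was 1.32% in db/m (quartiles 0.979% and 1.85%) and 1.07% in db/db control (quartiles 0.851% and 1.33%), so the cells of both libraries overlapped widely. Late-segment genes differed too, with 5 of 6 measured lower in db/db control by 1.5-fold or more and 1 higher, against 12.1% and 7.08% of all genes, among them Slc7a13 at 232 and 9.77 CPM. The part of segment and mitochondrial content in the ribosomal protein difference was not tested.

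**Figure D3:**
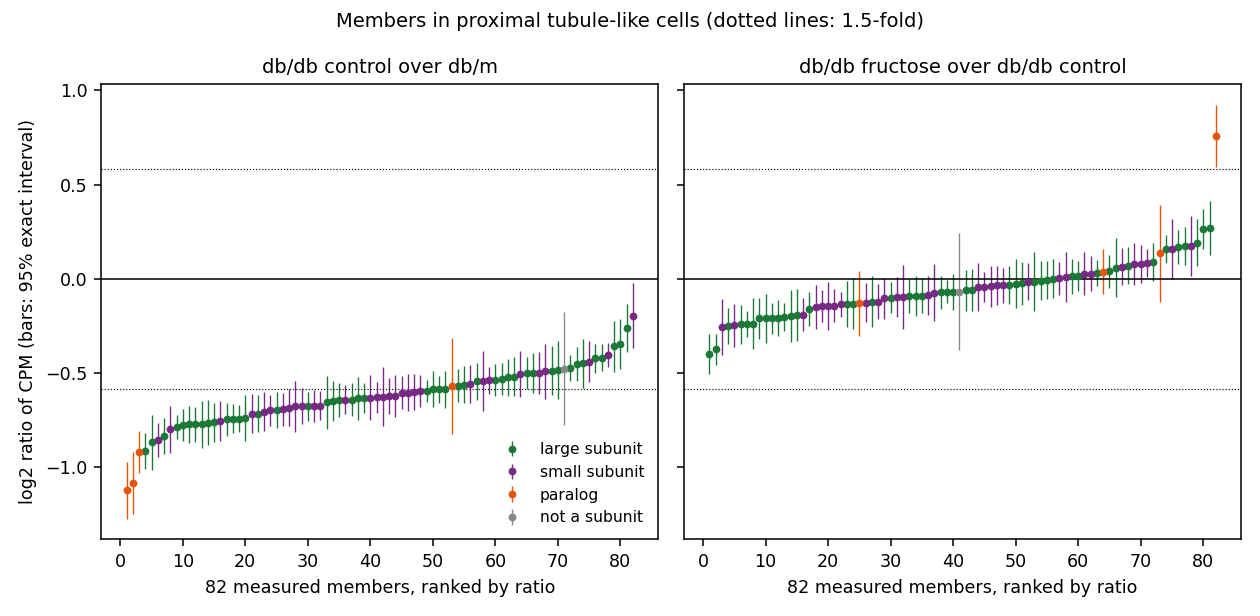
Log2 ratio of CPM (y axis) for the 82 measured members in proximal tubule-like cells, ranked (x axis), for both comparisons; bars are exact 95% intervals, colours give the kind of member and dotted lines mark 1.5-fold. All 82 lie below 0 on the left, and on the right all but Rpl22l1, at 0.76, lie within 1.5-fold.

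Both subunits had like ratios. The large subunit genes had a median log2 ratio of −0.61 by genotype, with 25 of 46 lower by 1.5-fold or more. The small subunit genes had −0.62 with 22 of 31, beside 12.1% of all genes. Without cluster 10, 1 of all 82 measured members was lower by that fold, against 8.81% of all genes. UMIs of large over small subunit genes were 1.63 in db/m, 1.63 in db/db control and 1.62 in db/db fructose. Members with an oligopyrimidine match near the start had a median of −0.63 (34 members), and members whose window had none also had −0.63 (28 members). The letters searched do not cover every run of C and T, so members without a match can still carry a tract. Its part in the ratios was not tested.

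Single members departed from the common ratio by more than counting error. For 43 of the 82 the interval held the summed ratio, for 19 it lay below and for 20 above. Among the 80 members with 50 CPM or more in either library, the 3 lowest ratios belonged to paralogs. Rps27l, a paralog of the small subunit protein Rps27 and a known p53 target, had 103 CPM in db/m, 47.5 CPM in db/db control and 43.4 CPM in db/db fructose, a log2 ratio of −1.12 (interval −1.27 to −0.97). Rps27 itself had 78.1, 50.6 and 57.2 CPM, a log2 ratio of −0.62. Rpl36al, which encodes nearly the same protein as Rpl36a, had 172, 91.1 and 93.5 CPM, a log2 ratio of −0.92, and Rpl36a had 76.0, 54.4 and 56.7 CPM, a log2 ratio of −0.48. Rpl22l1 had 85.1, 40.2 and 68.0 CPM, a log2 ratio of −1.08. The fourth measured paralog, Rpl7l1, had 29.2, 19.7 and 21.7 CPM, a log2 ratio of −0.57, beside −0.52 for Rpl7. Without cluster 10 the ratios of Rps27l and Rpl36al were −0.52 and −0.49, within 1.5-fold.

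Among the subunit genes, Rpl35a, whose loss causes Diamond-Blackfan anaemia in people, had the lowest ratio, with 231 CPM in db/m and 123 CPM in db/db control (log2 ratio −0.91). Rpl39, which lines the peptide exit tunnel, had 99.0 and 54.3 CPM (−0.87). Without cluster 10 the ratios of Rpl35a and Rpl39 were within 1.5-fold. The least negative ratio was that of Rps18, at 55.1 and 48.1 CPM (−0.20, interval −0.37 to −0.02). Next came Rpl31, at 102 and 85.5 CPM (−0.26), Rpl12 (−0.35) and Rpl23a (−0.36). For Rps18, reads can be shared with a near-identical copy, as described below.

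Between the db/db libraries the ribosomal protein genes of proximal tubule-like cells differed little. The summed log2 ratio of db/db fructose over db/db control was −0.06 (interval −0.07 to −0.05), from 120301 and 143315 UMIs. None of the 82 measured members was lower by 1.5-fold or more, against 1.46% of all 8929 measured genes, and 1 was higher, Rpl22l1, against 11.8% of all genes. The median log2 ratio of all genes was 0.26, so relative to it the summed ratio was −0.32. As a share of nuclear-encoded UMIs the ratio was −0.24, beside mitochondrial shares of 22.03% in db/db control and 11.4% in db/db fructose. The comparison shares the db/db control library with the comparison by genotype.

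The members lowest in this comparison were Rpl4, with 135 CPM in db/db control and 102 CPM in db/db fructose (log2 ratio −0.40, interval −0.50 to −0.29), and Rpl26, with 235 and 181 CPM (−0.37). Both are large subunit proteins. After Rpl22l1 the highest were Rpl34, with 62.0 and 74.8 CPM (0.27), and Rpl3, which shapes the peptidyl transferase centre, with 111 and 133 CPM (0.26). The interval excluded 0 for 37 of the 82 members, below 0 for 28 and above 0 for 9. The share of all genes whose interval excluded 0 is not given here, so these counts are not read as results about the members.

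Rpl22l1 was lower in db/db control than in db/m in every class compared. Its protein is a paralog of the large subunit protein Rpl22, and the pair are known to act in RNA splicing and T cell development. Among the 86 genes it was the 1 that was lower in db/db control than in db/m by 1.5-fold or more in all 6 classes compared. This is 1 of the 82 members measured in all 6, beside 41 of 7196 genes (0.57%). Scaled by nuclear-encoded UMIs or by size factors it kept 1.5-fold in proximal tubule, thick ascending limb and distal convoluted tubule-like cells. It did not in the other 3 classes, with log2 ratios of −0.49 and −0.52 in connecting tubule and principal-like, −0.58 and −0.57 in endothelium-like and −0.57 and −0.52 in intercalated-like cells. Unscaled, no other member reached this in more than 4 classes, a number held by Rpl9, Rps27 and Rps3. In thick ascending limb-like cells it had 101 CPM in db/m, 58.8 CPM in db/db control and 109 CPM in db/db fructose, and in distal convoluted tubule-like cells 81.3, 47.9 and 63.1 CPM. Connecting tubule and principal-like cells had 222, 141 and 184 CPM, endothelium-like cells 250 (from 326 UMIs), 155 and 208 CPM, and intercalated-like cells 179, 117 and 120 CPM. The value in db/db control was thus the lowest of the 3 in every class, a pattern shared in all 6 classes by 1 other of the 83 members followed, Rpl6, which was within 1.5-fold by genotype in each.

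The order of the libraries for Rpl22l1 was the same without cluster 10. Then proximal tubule-like cells had 69.4 CPM in db/m, 40.1 CPM in db/db control and 66.4 CPM in db/db fructose, with log2 ratios of −0.79 (interval −0.97 to −0.61) and 0.73 (interval 0.56 to 0.89), and it was the 1 member lower by 1.5-fold or more. In db/db control it stood at 38.3 to 42.0 CPM in clusters 0, 1 and 2, in db/m at 69.0 and 69.1 CPM in clusters 6 and 9, and in db/db fructose at 59.7 to 71.0 CPM in clusters 0, 1 and 2. For db/db fructose over db/db control the log2 ratio was 0.76 in proximal tubule-like cells (interval 0.59 to 0.92) and 0.89 in thick ascending limb-like cells (interval 0.66 to 1.11). Scaled by nuclear-encoded UMIs these were 0.57 and 0.75, and scaled by size factors 0.49 and 0.67, so that the first did not reach 1.5-fold under either. In intercalated-like cells the ratio was 0.04 and turned negative under both scalings, to −0.14 and −0.21. Its paralog Rpl22 had 130, 76.5 and 70.4 CPM in proximal tubule-like cells. In thick ascending limb-like cells Rpl22 had 202, 161 and 186 CPM and in endothelium-like cells 447, 303 and 363 CPM, so there db/db control was the lowest for Rpl22 too.

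**Figure D4:**
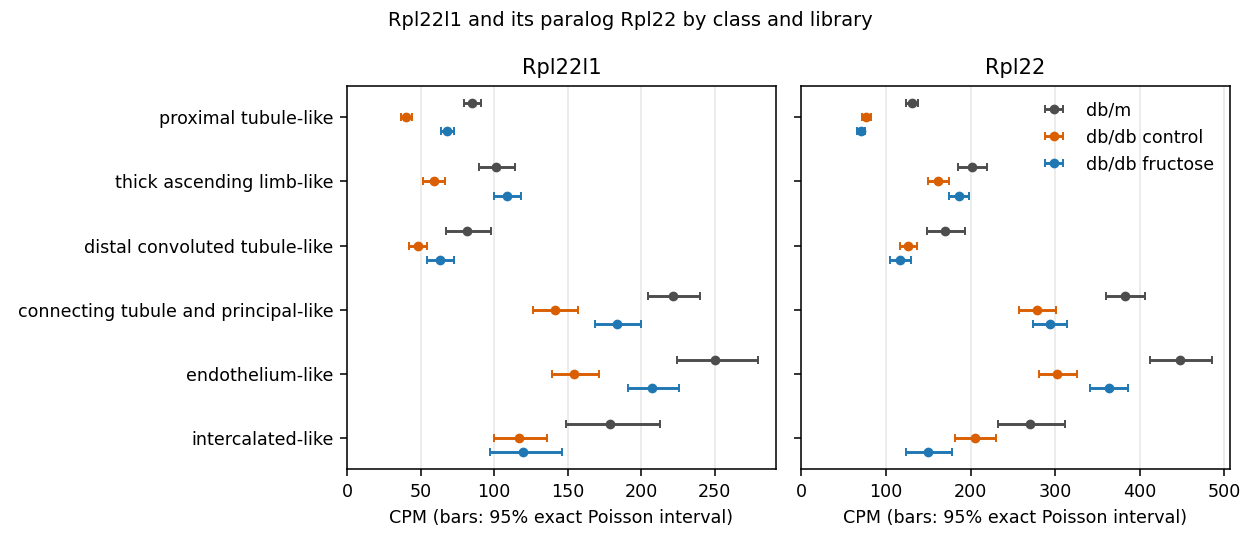
CPM of Rpl22l1 (left) and its paralog Rpl22 (right) in 6 classes (y axis) and 3 libraries (points); bars are exact 95% Poisson intervals. Rpl22l1 was lowest in db/db control in every class, for example 40.2 CPM in proximal tubule-like cells beside 85.1 CPM in db/m and 68.0 CPM in db/db fructose.

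In the other classes the difference by genotype was smaller than in all proximal tubule-like cells. In 4 of the 5 it was larger than the −0.15 of proximal tubule-like cells without cluster 10. That value leaves out a cluster with a high share, whereas the other classes keep all their clusters, so the measures are not alike. With nuclear-encoded UMIs as the denominator the ratios of the 5 classes ran from −0.36 to −0.02, and their all-gene medians from −0.14 to 0.05. In thick ascending limb-like cells the summed log2 ratio of db/db control over db/m was −0.01 (interval −0.03 to −0.00053), and 41 members lay below and 41 above 0. There 1 of 82 was lower by 1.5-fold or more, Rpl22l1, against 4.34% of all genes, and none was higher, against 7.64%. This class includes cluster 19, led by Car15 and Klk1, with Nos1 and Pappa2 also among its top genes. Cluster 19 held 58 db/m cells with a share of 4.25% and 179 db/db control cells with a share of 5.35%. The class ratio without cluster 19 is not given here, and the part of this cluster in it was not tested. In distal convoluted tubule-like cells the ratio was −0.36 (interval −0.38 to −0.34), with 12 of 82 lower, against 9.83% of all genes. Connecting tubule and principal-like cells had −0.52 (interval −0.54 to −0.51), with 29 of 82 lower, against 14.4%, and the lowest member was Rpl9 at 715 and 356 CPM (−1.01). Intercalated-like cells had −0.36 (interval −0.38 to −0.33), with 4 of 82 lower, against 12.2%, the lowest being Rpl7 at 470 and 291 CPM (−0.69). In endothelium-like cells, which line the vessels and glomerular capillaries, the ratio was −0.47 (interval −0.48 to −0.46), with 13 of 82 lower, against 10.3%, and none higher, against 7.84%, the lowest being Rps15a at 717 and 442 CPM (−0.70). No member was higher by 1.5-fold in any of these 5 classes, where 6.96% to 15.8% of all genes were.

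Within the 9 clusters of these classes that held at least 100 cells of both libraries the ratio by genotype was negative, but the sizes differed. In endothelium-like clusters 11 and 13 the log2 ratios were −0.61 and −0.42. In connecting tubule and principal-like clusters 8 and 17 they were −0.52 and −0.05. Intercalated-like cluster 15 had −0.30. In thick ascending limb-like clusters 4 and 7 they were −0.29 and −0.08, and in distal convoluted tubule-like clusters 5 and 12 they were −0.22 and −0.11. With nuclear-encoded UMIs as the denominator the value turned positive in clusters 17 (0.03) and 12 (0.10) and was negative in the other 7 of these 9. Each tubule class plotted held a cluster with a low share and more Malat1 and another with a higher share and less Malat1. Cluster 4 had 1.16% to 1.41% with 80236 to 110614 CPM of Malat1 over the libraries, and cluster 7 had 3.05% to 3.26% with 20065 to 24967 CPM. Restricting endothelium-like cells to 10% to 20% mitochondrial UMIs gave a log2 ratio of 0.02, and connecting tubule and principal-like cells then had −0.08.

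**Figure D5:**
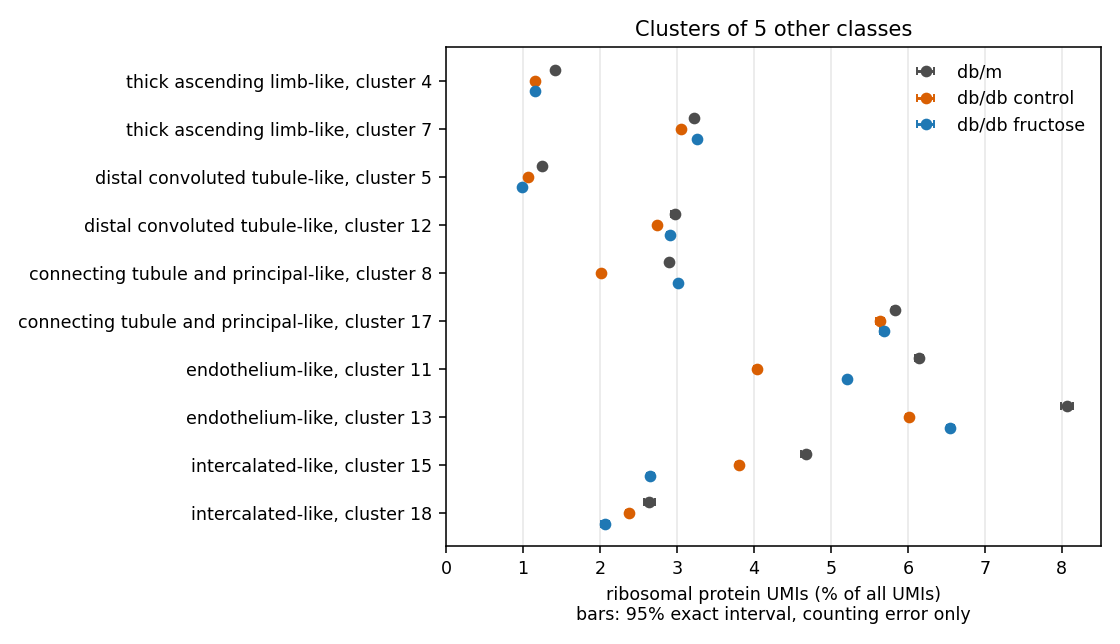
Ribosomal protein share of all UMIs (x axis, %) in 10 clusters of 5 other classes (y axis) by library; bars are exact 95% intervals for counting error. Thick ascending limb-like cluster 19 is not plotted. In endothelium-like cluster 11 the share was 6.15% in db/m, 4.03% in db/db control and 5.21% in db/db fructose, and in intercalated-like cluster 15 it was 4.67%, 3.81% and 2.65%.

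The comparison of diets within db/db mice went in different directions in different classes. Intercalated-like cells had lower ribosomal protein levels in db/db fructose, with a summed log2 ratio of −0.41 (interval −0.43 to −0.38), and 10 of 82 measured members were lower by 1.5-fold or more, against 5.89% of all genes. None was higher, against 30.4% of all genes, whose median log2 ratio was 0.32, so the members' summed ratio relative to it was −0.73. Rpl36al had 314 CPM in db/db control and 183 CPM in db/db fructose (log2 ratio −0.78), and Rpl32 had 534 and 315 CPM (−0.76). The ratio was −0.52 in cluster 15 and −0.21 in cluster 18. The 405 db/db fructose cells had a median of 1386 UMIs, a Malat1 level of 73047 CPM and a mitochondrial share of 12.1%, and the 539 db/db control cells had 1749 UMIs, 45638 CPM and 22.1%. Summed proximal tubule genes also differed in these cells and went the other way, higher in db/db fructose. The 8 early segment genes summed to 980 CPM in db/db control and 1722 CPM in db/db fructose, with 5 of 8 higher by 1.5-fold or more. The late segment genes summed to 78.9 and 173 CPM, with 4 of 5 measured higher. The part of these in the result was not tested.

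Connecting tubule and principal-like cells had a summed log2 ratio of 0.27 (interval 0.26 to 0.29) for db/db fructose over db/db control, with 8 of 82 members higher by 1.5-fold or more, against 18.8% of all genes. The highest subunit gene was Rpl3, at 232 and 398 CPM (0.78). All-gene medians of 0.25 there and 0.20 in endothelium-like cells left 0.02 and 0.04 for the ribosomal protein genes. In endothelium-like cells the summed ratio was 0.23 (interval 0.22 to 0.24), all 83 measured members lay above 0, none was higher by 1.5-fold, against 10.1% of all genes, and none lower, against 2.43%. In cells with 10% to 20% mitochondrial UMIs the direction turned in both classes, to −0.30 and −0.55. Thick ascending limb-like cells had 0.08, which turned to −0.06 with nuclear-encoded UMIs as the denominator, with 1 of 82 higher, Rpl22l1, against 10.1%, and none lower, against 1.13%. Distal convoluted tubule-like cells had −0.01 (interval −0.03 to 0.01), with none of 82 past 1.5-fold, against 2.17% lower and 5.79% higher among all genes.

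Other genes of the translation machinery were read from fixed lists in proximal tubule-like cells, by genotype, where 12.1% of all genes were lower and 7.08% higher. All these cells were used, including the db/m cluster on which the size of the ribosomal protein difference depended. List values without that cluster are not given here, and its part in the list results was not tested. Of 33 initiation and elongation factors, 4 were lower in db/db control by 1.5-fold or more and none higher, a share at the background, with a median log2 ratio of −0.35 beside −0.0027 for all genes. Eif5a, which relieves stalled ribosomes, had 139 CPM in db/m and 81.3 CPM in db/db control (−0.77), whereas the helicase Eif4a2 had 187 and 220 CPM (0.23). Of 18 other mRNAs known for an oligopyrimidine start, 7 were lower and none higher, with a median of −0.47. Tpt1 had 1075 and 544 CPM (−0.98) and Nap1l1 92.6 and 40.7 CPM (−1.19). Of the ribosomal proteins with other names, Fau had 391 and 236 CPM (−0.73) and Rack1 126 and 96.6 CPM (−0.39). Of 78 mitochondrial ribosomal protein genes, 21 were lower and none higher, with a median of −0.48, for example Mrpl20 at 83.4 and 41.0 CPM (−1.03).

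Genes that build ribosomes or control their number had medians nearer 0. Their lists were read in the same cells, with that db/m cluster included. Of 33 ribosome biogenesis genes, 4 were lower and none higher, again a share at the background of 12.1%, with a median of −0.13, and Taf1d, a subunit of the RNA polymerase I initiation factor, had 189 and 274 CPM (0.53). Of 19 mTORC1 genes, 4 were lower and 1 higher (median −0.10), of which Lamtor5 had 61.8 and 30.8 CPM (−1.003). None of 6 genes of Myc and its partners and none of 8 small nucleolar RNA host genes passed 1.5-fold. Of the 6 measured nuclear and rRNA-like RNAs, 1 was lower, Neat1, at 3788 and 2284 CPM (−0.73). For db/db fructose over db/db control, none of the 33 initiation and elongation factors, 33 biogenesis genes or 78 mitochondrial ribosomal protein genes passed 1.5-fold, with medians of 0.09, 0.06 and 0.12. Of all genes 1.46% were lower and 11.8% higher there, with a median of 0.26.

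Some limits of counting bear on single members. For 8 genes (Rpl10, Rpl29, Rpl35, Rpl36a, Rpl41, Rps2, Rps18 and Rps27), at least 90% of the 31-base words in the last 150 bases of the longest coding transcript also occurred in an annotated transcript of another gene, so their counts are uncertain. The copy of Rps27 is Rps27rt, itself among the 86. The 8 had a median log2 ratio of −0.68 by genotype in proximal tubule-like cells, and the 74 other measured members −0.62. Free RNA is the other limit. The late proximal segment genes summed to 333, 78.7 and 111 CPM in endothelium-like cells of the db/m, db/db control and fructose libraries, beside 1500, 242 and 595 CPM in proximal tubule-like cells. The early segment genes went the other way by genotype, with 696 CPM in db/m and 901 CPM in db/db control in endothelium-like cells. In distal convoluted tubule-like cells they summed to 866 and 1932 CPM, beside the −0.36 of the ribosomal protein genes there. Of the 8 early segment genes 7 were higher there by 1.5-fold or more, against 15.8% of all genes. The part of free RNA in the differences of the other classes was not tested.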

How the data were processed

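The files hold raw UMI counts for every gene and barcode as the authors deposited them; the submitters' processing notes name Cell Ranger 6.0.0 and the mm10 build. Per the labels' protocols, perfused kidneys were digested with collagenase and pronase, and debris, dead cells and red cells were removed; how many mice each library pools is not given in the sources used here.

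Barcodes needed 200 genes and no more than 50% mitochondrial UMIs. The highest Scrublet scores (scanpy 1.11.5) were removed at 0.8% per 1000 barcodes (10.8%, 21.2% and 16.3%), since the automatic calls ran from 0% to 15.2%. The 3 libraries were clustered together without integration, without ribosomal protein and mitochondrial genes: 10000 UMIs per cell, 2000 scaled variable genes, 30 components, 15 neighbours and Leiden (leidenalg 0.10.2) resolution 1. Scaling, and marker folds taken over the median of the other clusters, were chosen after the clusters were seen, and 4 clusters stayed unnamed. Names are rebuilt and can differ from the study's.

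Counts were summed per class and library. Levels carry exact Poisson, shares exact Clopper-Pearson and ratios exact conditional binomial 95% intervals; reads of a library are not independent replicates and cells were not treated as such. A member was measured at 10 CPM and called at 1.5-fold. The calculation was tested on simulated counts. Members named in the text are the 5 highest and 5 lowest ratios per comparison in proximal tubule-like cells with 50 CPM or more, the 5 highest levels in db/m, the paralog pairs, and the highest and lowest ratio in each other class; 2 at each end were taken from the other lists. A member that this rule names is not reported here. Rpl22l1 over clusters, Rpl6, Rpl32 in intercalated-like cells, Rpl9, Rps3 and Rps27 as members lower in several classes, and clusters 3 and 10 were singled out after their values were seen. The members and lists were chosen with earlier results of these data known. Gene positions and transcript copies came from GENCODE M21 and start windows from RefSeq.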

Additional observations from a re-analysis of the deposited data

Results flagged for a closer look

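For db/db fructose over db/db control, the summed log2 ratio of the ribosomal protein genes had opposite signs in different classes. It was 0.27 in connecting tubule and principal-like cells and 0.23 in endothelium-like cells, and −0.41 in intercalated-like cells and −0.058 in proximal tubule-like cells. With nuclear-encoded UMIs as the denominator and with size factors the signs were the same, but the values of connecting tubule and principal-like cells were 0.08 and 0.03 and those of endothelium-like cells 0.08 and 0.04. In cells with 10% to 20% mitochondrial UMIs 3 of the 4 signs turned, to −0.30 in connecting tubule and principal-like, −0.55 in endothelium-like and 0.073 in proximal tubule-like cells. With each library clustered alone that last value was also positive, at 0.032. The difference between classes was not tested, since each group is 1 library.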

How the results depend on the processing

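No paired analysis was possible because each group is 1 library, and for the same reason no replicate could be left out. In proximal tubule-like cells the summed log2 ratio of db/db control over db/m, −0.63, was negative in all 16 alternatives. It was −0.56 with nuclear-encoded UMIs as the denominator, −0.35 in cells with at most 30% mitochondrial UMIs, −0.57 without doublet removal, −0.66 with each library clustered alone, −0.70 in cells with 10% to 20% mitochondrial UMIs, −0.57 in early and −0.74 in late segment cells, and −0.61 in cells with 1000 UMIs or more. Alternatives added after the data were seen gave −0.64 (variable genes not scaled), −0.68 (marker folds over the mean), −0.15 (without cluster 10) and −0.43 (with cluster 3). The count of 50 lower members, against 12.1% of all genes, was 1 without cluster 10, against 8.81%, and 9 with cluster 3, against 12.5%. It was 80 at a fold of 5/4, 2 at 2-fold, 33 with nuclear-encoded UMIs and 4 at 30% mitochondrial UMIs. Shares of all genes at these last settings are not given here, so these counts are not read as results about the members. No alternative called a member higher.

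For db/db fructose over db/db control, −0.06, the same settings gave −0.24 with nuclear-encoded UMIs, −0.32 with size factors, −0.11 at 30% mitochondrial UMIs, −0.070 with 500 genes, −0.10 without doublet removal, −0.22 in late segment cells, −0.089 with 1000 UMIs, −0.12 without cluster 10 and −0.19 with cluster 3. It turned positive with each library clustered alone (0.032) and in the 10% to 20% band (0.073). Members lower numbered 2 at a fold of 5/4, 2 with size factors and 13 in late segment cells, and members higher 2 with any count, 5 in late segment cells, and 0 at 2-fold, with nuclear-encoded UMIs and with size factors. Shares of all genes at these settings are not given here, so these counts are not read as results about the members. The late segment held 70 db/db control cells. The cause was not tested. In the other classes the thick ascending limb-like ratios ran from −0.28 to 0.19 by genotype and from −0.13 to 0.10 by diet, and so have no settled sign; intercalated-like ratios stayed negative in all 12 alternatives of each comparison, from −0.90 to −0.25 and from −0.87 to −0.28. Distal convoluted tubule-like ratios by genotype ran from −0.59 to −0.09.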

Other observations

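Cells outside the comparisons also differed in ribosomal protein content. Thin limb-like cells, which line the thin loop of Henle, had shares of 6.42% in db/m, 5.78% in db/db control and 6.87% in db/db fructose, from 80, 51 and 91 cells. Podocyte-like cells of db/m, of the glomerular filter, had 4.21% from 105 cells. Neutrophil-like cells had 1.85% in db/db control and 2.40% in db/db fructose, from 24 and 42 cells, below the other leukocytes. Erythroid-like cells had 1.47%, 1.30% and 1.24%, and with haemoglobin and mitochondrial UMIs left out of the denominator 3.29%, 2.78% and 2.37%; Rpl41 led there, at 1001, 795 and 990 CPM. Cluster 25, led by the cell cycle genes Mki67 and Top2a, had 1.11% in db/db fructose, from 54 cells.

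UMIs of large over small subunit genes differed between classes more than between libraries. They were 1.63 in db/m proximal tubule-like cells, 1.40 in endothelium-like cells, 1.26 in mononuclear phagocyte-like cells and 1.26 in lymphocyte-like cells, and the db/db libraries lay within 1.62 to 1.63, 1.40 to 1.42, 1.254 to 1.270 and 1.254 to 1.260 in the same classes.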
